A study of Mus musculus with 2 samples.

Results

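Kupffer cells, macrophages that line the blood spaces of the liver, were ranked within 1 single-cell library by the amount of globin RNA in their droplets, and the globin-rich cells were set against the globin-poor ones. The cells were 2424 of the 9726 barcodes of library 2, out of 18633 barcodes in both libraries of the series. Each had at least 200 genes and 3000 unique molecular identifiers (UMIs, the tags that count single RNA molecules) and at most 20% mitochondrial UMIs. At least 1% of the UMIs came from the Kupffer genes Clec4f, Cd5l and C1qa, under 0.05% from 6 genes of liver endothelium, and at most 1 UMI from the erythroblast genes Klf1, Car1 and Hemgn. The groups were then chosen by the share of UMIs from the 4 adult globin genes Hba-a1, Hba-a2, Hbb-bs and Hbb-bt. These same counts of each cell chose the members, so the levels of these genes are description only. The 808 highest cells are called globin-rich, the 808 lowest globin-poor and the 808 between them intermediate. All shares and levels of other genes were computed without the 4 globin genes.

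The study profiled liver cells of 2 male littermate mice aged 8 to 10 weeks that had received no treatment, 1 Spta wt/wt and 1 Spta sph/sph, in droplets with 3' end counting. Spta is the name the labels use for the gene of alpha-spectrin, a protein of the red cell membrane skeleton, and mice homozygous for its sph allele have fragile red cells. Livers were digested by perfusion with collagenase B, hepatocytes were removed by slow spins, and cells bearing F4/80, a macrophage surface protein, were held on magnetic beads. Barcodes carry the number 1 or 2 of their library, and no label ties a number to a mouse, so library 2 is named by its number and no genotype is attached to it. A library is 1 mouse and cells of 1 mouse are not replicates. No test or p-value is therefore given, and the intervals are 95% intervals that cover counting error only.

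Kupffer cells take up aged and damaged red cells from the blood. Heme from the digested hemoglobin is opened by heme oxygenase (Hmox1), and the iron is stored in ferritin (Fth1, Ftl1) or exported through ferroportin (Slc40a1). Macrophages at sites of red cell formation also hold maturing erythroblasts on their surface and digest the nuclei these expel. Reticulocytes, the young red cells that have lost the nucleus, still carry globin and other late erythroid RNA. A droplet can also catch free RNA or an additional cell.

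The ranking rests on 2 pairs of duplicated genes. The alpha genes Hba-a1 and Hba-a2 lie in the alpha cluster on chromosome 11, and the beta genes Hbb-bs and Hbb-bt in the beta cluster on chromosome 7. Promoters of 3 of the 4 genes are shown because these genes set the ranking and their RNA proportions are compared further on. The sequences are from RefSeq (GRCm38.p6), run 5′ to 3′ on the strand of the gene and end 11 bases before the RefSeq start. The alpha window is chr11:32296242-32296481 (plus strand), and the beta windows are chr7:103827939-103828178 and chr7:103813934-103814173 (both minus strand). Capitals mark GATAAG, a form of the site read by GATA factors, CACCC, a form read by KLF factors, and CCAAT, each searched on both strands.
Hba-a2: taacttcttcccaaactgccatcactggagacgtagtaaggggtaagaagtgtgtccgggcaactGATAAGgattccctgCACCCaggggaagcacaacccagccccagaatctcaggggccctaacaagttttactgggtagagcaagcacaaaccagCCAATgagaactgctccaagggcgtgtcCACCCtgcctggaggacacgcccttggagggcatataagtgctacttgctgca
Hbb-bs: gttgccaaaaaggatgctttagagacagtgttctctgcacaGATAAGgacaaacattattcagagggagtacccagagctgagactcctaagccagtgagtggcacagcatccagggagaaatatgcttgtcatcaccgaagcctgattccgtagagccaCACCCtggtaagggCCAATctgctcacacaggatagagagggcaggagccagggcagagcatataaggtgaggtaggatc
Hbb-bt: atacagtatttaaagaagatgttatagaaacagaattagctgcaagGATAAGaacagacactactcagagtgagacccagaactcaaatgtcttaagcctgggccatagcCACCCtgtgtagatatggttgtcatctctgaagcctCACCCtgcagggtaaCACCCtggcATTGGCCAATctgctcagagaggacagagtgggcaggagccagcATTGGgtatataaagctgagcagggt

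Each of the 3 windows holds 1 GATAAG, between 180 and 209 bases before the start. Hba-a2 has 2 matches to CACCC and 1 to CCAAT, Hbb-bs 1 and 1, and Hbb-bt 3 and 3, of which a pair of CCAAT matches on opposite strands adjoin without overlap. Of 32851 RefSeq promoter windows of the same length, 6.34% hold GATAAG, 50.6% CACCC, 33.0% CCAAT and 0.916% (301) all 3. A match describes letters and is not evidence of a bound site. The window of Hba-a1 (chr11:32283422-32283661) is identical to that of Hba-a2 over the 237 bases they share. The Alas2 window (chrX:150547167-150547406) holds 3 matches to CACCC and none to GATAAG or CCAAT in these exact letters. Other forms of the GATA site were not searched, so the window is not shown to lack one. It follows the RefSeq start and runs past 150547375, the gene start in the annotation used further on. The transcripts of Hba-a1 and Hba-a2 are 99.8% identical over 538 aligned bases, and those of Hbb-bs and Hbb-bt 92.7% over 626, so how counting divided reads within each pair is uncertain and the summed globin share was used.

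Globin RNA was found in every one of the 2424 cells, at levels that differed widely. The share of a cell's UMIs ran from 0.0225% to 0.495% in globin-poor cells (median 0.284%), to 2.45% in intermediate cells (median 0.940%), and from 2.48% to 46.5% in globin-rich cells (median 7.53%). These ranges follow from the ranking itself. The last cell below the upper border had 2.454% and the first above it 2.476%, and at the lower border the values were 0.4946% and 0.4948%. Within 10% of these borders lay 76 and 153 cells, so the borders divide a continuous range and mark no separate cell types. In molecules, the median cell held 24 globin UMIs in the globin-poor group, 81 in the intermediate group and 713.5 in the globin-rich group.

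**Figure D1:**
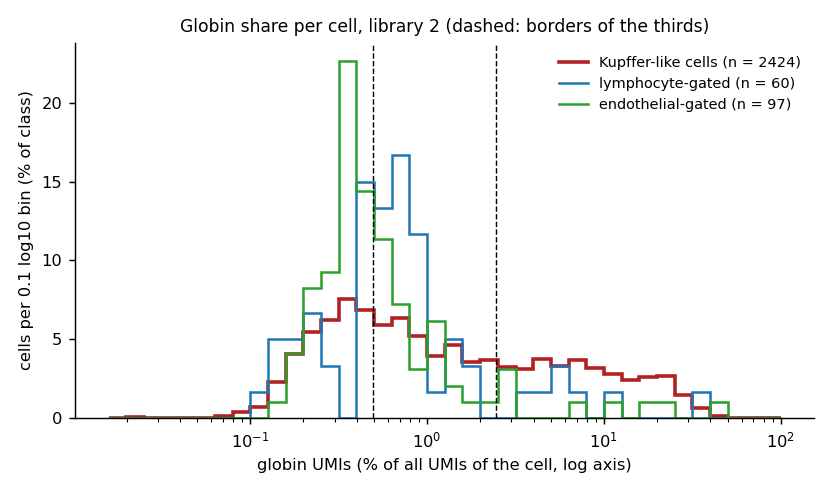
Histogram of the globin share of UMIs per cell (horizontal log axis, percent) against the percent of the class per bin (vertical axis) for 2424 Kupffer cells, 60 lymphocyte-gated and 97 endothelial-gated barcodes of library 2, with dashed lines at the borders of the globin-poor and globin-rich cells. The Kupffer cells form a long right shoulder up to 46.5%, while most barcodes of both other classes lie below 1%.

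Barcodes of library 2 gated as lymphocytes or endothelium carried globin as well. The 60 barcodes gated on T and B cell genes had a median of 19 globin UMIs and a median share of 0.630%, within the range of intermediate Kupffer cells. The 97 barcodes gated on endothelial genes also had 19 UMIs, and their median share of 0.436% lay within the range of globin-poor cells. At least 100 globin UMIs were found in 1122 of the 2424 Kupffer cells (46.3%, exact binomial interval 44.3 to 48.3), in 7 lymphocyte-gated barcodes (11.7%, 4.82 to 22.6) and in 10 endothelial-gated barcodes (10.3%, 5.06 to 18.1). These classes were shallower, with medians of 2999 and 4867 UMIs against 9082 in Kupffer cells. Of the 86 endothelial-gated barcodes with at least 3000 UMIs, 9 held at least 100 globin UMIs (10.5%, 4.90 to 18.9). Of 30 such lymphocyte-gated barcodes 3 did (10.0%, 2.11 to 26.5). With medians of 4994.5 and 5167 UMIs both sets were still shallower than the Kupffer cells, so depth was not matched. By share, 7 lymphocyte-gated (11.7%, 4.82 to 22.6) and 8 endothelial-gated barcodes (8.25%, 3.63 to 15.6) reached the lowest share of globin-rich cells, as 808 of 2424 Kupffer cells do by the ranking. The plot of globin shares shows this difference as a shoulder to the right that the Kupffer cells have and few other barcodes reach.

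The proportions of the globin genes differed by a few percentage points among the Kupffer groups. Alpha globin (Hba-a1 with Hba-a2) gave 46.0% of globin UMIs in globin-poor cells (interval 45.4 to 46.7), 49.5% in intermediate cells (49.1 to 49.8) and 45.9% in globin-rich cells (45.8 to 46.0). The shares were 44.1% in lymphocyte-gated barcodes, 47.3% in endothelial-gated ones and 40.2% in barcodes gated on Klf1, Car1 and Hemgn (erythroblast-gated, 466 barcodes). Hbb-bt took 15.0% of globin UMIs in erythroblast-gated barcodes and 8.95% in globin-rich Kupffer cells. The minor theta-like genes Hbq1a and Hbq1b, which the ranking did not use, had 37 and 38 UMIs in globin-rich cells against 1 and 2 in globin-poor cells. The embryonic genes Hbb-y and Hba-x had 0 and 1 UMIs in globin-rich cells.

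Both groups carried Kupffer genes that the rule did not use. Of 22 Kupffer identity genes, which include Clec4f and Cd5l of the rule, 20 reached the minimum level for comparison, and none differed by 1.5-fold. Vsig4, a complement receptor, had 2232 CPM (the UMIs of a gene scaled to a total of 1e+06 UMIs without globin) in globin-rich and 2348 in globin-poor cells. Adgre1, which encodes F4/80, had 891 and 949, Csf1r, the receptor for the macrophage growth factor, 1297 and 1335, and Timd4, a phosphatidylserine receptor of long-lived Kupffer cells, 255 and 277. Per cell, the summed identity genes had a median share of 2.58% in globin-rich cells (5th to 95th percentile 1.93 to 3.38) and 2.70% in globin-poor cells (1.96 to 3.56), so the ranges of the cells largely overlapped. Of the summed 25872 and 26605 CPM in globin-rich and globin-poor cells, Cd5l gave 8669 and 9380 and Clec4f 2948 and 2844. The rule selected on these 2 genes, so this sum is description only. Depth was similar but not equal. Median UMIs without globin were 8932 in globin-rich, 8185.5 in intermediate and 9002.5 in globin-poor cells, and the groups summed to 7724590, 7324317 and 7988422 such UMIs. Of the 2424 cells, 478 had a barcode sequence that also occurs in library 1, 182 of them globin-rich and 172 globin-poor.

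Globin-rich cells differed from globin-poor cells in a short set of genes, most of them known from the last steps of red cell formation, while most of the other genes were close to level. Of 2965 genes with at least 50 CPM in either group and at least 30 UMIs, 20 (0.675%) were at least 1.5-fold higher in globin-rich cells and 0 (0%) at least 1.5-fold lower. The median log2 ratio of globin-rich over globin-poor cells was -0.02 over all these genes and 2314 genes (78.0%) were within 1.1-fold. Of the 20 genes, 16 reached the minimum level in globin-rich cells alone and so had to differ to enter at all. The other 4, which also reached it in globin-poor cells, were Rsad2, Epb41, Mkrn1 and March2. Nt5c3 lay just past the 1.5-fold limit with a log2 ratio of 0.71, and Slc25a39, a mitochondrial carrier, just short of it with 0.52.

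**Figure D2:**
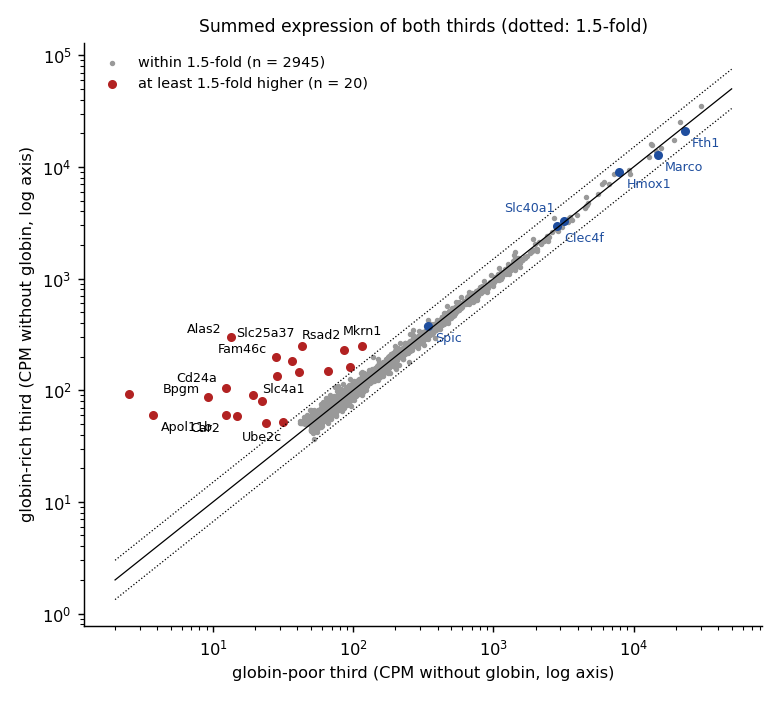
Summed level of 2965 genes in globin-rich cells (vertical log axis, CPM without globin) against globin-poor cells (horizontal log axis), 808 cells each, with equality as a solid line and 1.5-fold as dotted lines. Red points are the 20 genes at least 1.5-fold higher, among them Alas2 at 302 against 13.4 CPM, and blue points are Kupffer, heme and iron genes, which lie on or near it.

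Genes of heme synthesis were among the highest. Alas2, the erythroid form of the enzyme that starts heme synthesis (chromosome X, 150547375 to 150570638, GRCm38), had 13.4 CPM in globin-poor cells (interval 11.0 to 16.2), 46.4 in intermediate cells (41.6 to 51.6) and 302 in globin-rich cells (289 to 314). Its log2 ratio was 4.49 (4.21 to 4.79), or 22.5-fold. Slc25a37, mitoferrin, which carries iron into erythroid mitochondria, had 42.8, 89.2 and 251 CPM (log2 ratio 2.55), and Fech, which inserts the iron into heme, had 41.1, 62.5 and 147 CPM (1.84). In all 3 genes the intermediate cells lay between the outer groups with no overlap of the counting intervals. Enzymes of the middle steps were below the minimum level, with Alad at 30.03 and 19.9 CPM in globin-rich and globin-poor cells and Urod at 25.4 and 16.3.

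The 20 genes also held some that act in the membrane and metabolism of red cells. Slc4a1 (chromosome 11, 102348824 to 102366203), the anion exchanger band 3, had 19.3 CPM in globin-poor cells (16.4 to 22.6), 36.7 in intermediate (32.5 to 41.4) and 91.3 in globin-rich cells (84.7 to 98.3), with a log2 ratio of 2.24 (1.99 to 2.50). Epb41, protein 4.1 of the membrane skeleton, had 65.7, 83.7 and 150 CPM (log2 ratio 1.19), while Add1, adducin of the same skeleton, had 59.6, 57.3 and 57.0 CPM (-0.07, -0.26 to 0.13). Bpgm, which makes the phosphoglycerate that sets the oxygen affinity of hemoglobin, had 9.26, 18.2 and 87.8 CPM (3.24). Car2, a carbonic anhydrase, had 12.3, 34.1 and 59.6 CPM (2.28), and Nt5c3, a nucleotidase of maturing red cells, 31.5, 33.3 and 51.5 CPM (0.71). Nt5c3 was thus nearly level between globin-poor and intermediate cells, and its difference came with the globin-rich cells.

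Cd24a, a surface protein of early blood cells and erythroblasts, had 12.4 CPM in globin-poor, 34.0 in intermediate and 106 in globin-rich cells (log2 ratio 3.09). Among the 20 genes were also some of the ubiquitin system. Ube2l6 had 36.8, 47.6 and 184 CPM (2.32), Ube2o, a ligase that clears ribosomal proteins in reticulocytes, 14.9, 22.8 and 59.2 CPM (1.99), and the RING finger gene Mkrn1 115, 124 and 247 CPM (2.14-fold). March2, a membrane-bound ligase, had 94.4, 98.03 and 162 CPM (0.78). These genes were picked from the 20, and of the listed proteasome and ubiquitin genes 30 reached the minimum level, with 0 past 1.5-fold and a median of -0.05.

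The remaining genes of the 20 have less settled ties to red cells. Apol11b had 3.76, 12.3 and 59.9 CPM in globin-poor, intermediate and globin-rich cells (log2 ratio 4.00), Fam46c, a poly(A) polymerase gene, 28.2, 55.2 and 199 CPM (2.82), Fam213a 28.4, 43.6 and 133 CPM (2.23) and Fam220a 22.3, 28.8 and 79.7 CPM (1.84). Rsad2 (chromosome 12, 26442746 to 26456452), the antiviral protein viperin, had 86.5, 106 and 229 CPM (1.41). It was the 1 member of 11 measured interferon response genes that was at least 1.5-fold higher. The others had log2 ratios up to 0.14, among them Irf7 at 0.02, Ifitm3 at -0.24 and Ifi27l2a at -0.17. Of the 11 listed interferon genes below the minimum level, Isg15, a ubiquitin-like protein, had 23.2, 29.8 and 44.5 CPM (0.94, 0.68 to 1.21). Ube2c, a cell cycle ubiquitin enzyme, had 23.8, 27.6 and 50.7 CPM (1.09), while the other 4 measured proliferation genes were between -0.32 (H2afz) and -0.10 (Tuba1b).

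Erythroid genes were fixed as a list of 53 without globin, chosen with earlier results of these data known, and 51 of them are in the file. Of these, 19 reached the minimum level, 10 in globin-rich cells alone, and 11 were at least 1.5-fold higher and 0 lower. The 9 members that also reached the minimum in globin-poor cells had a median log2 ratio of 0.35, beside -0.02 over all genes, and 2 of them, Epb41 and Mkrn1, were past 1.5-fold. With the other 10, which had to be higher to enter, the median was 1.19. Another 32 were below the minimum, and of the 31 with more than 3 UMIs in a group 29 had a ratio above 0, 22 of them with an interval above 0. Genes below the minimum included Isg20, an RNA exonuclease gene, with 2.38 CPM in globin-poor, 4.51 in intermediate and 28.6 in globin-rich cells, and Trim10 with 0.751, 0.956 and 8.16. Summed over the 51 genes, globin-rich cells had 3891 CPM, intermediate cells 2444 and globin-poor cells 2171 (log2 ratio 0.84, 0.81 to 0.87). A cell's erythroid sum had a median of 0.349% of UMIs in globin-rich cells (5th to 95th percentile 0.184 to 0.800) and 0.209% in globin-poor cells (0.124 to 0.314), so single cells of both groups overlapped.

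Several regulators and receptors of earlier erythroid stages were sparse or differed less. Not all erythroid genes of the list that were sparse did so, since Slc38a5 had 46 and 8 UMIs in globin-rich and globin-poor cells (log2 ratio 2.57) and Rhag 64 and 14 (2.24). Cd24a (3.09) and Car2 (2.28) were also higher. Gata1, the master regulator of the lineage, had 13 UMIs in globin-rich and 7 in globin-poor cells (log2 ratio 0.94, -0.49 to 2.51), Tal1, its partner, 48 and 23 UMIs (1.11, 0.36 to 1.89), and Epor, the erythropoietin receptor, 73 and 94 UMIs (-0.32, -0.78 to 0.14). Tfrc, the transferrin receptor, had 72.2 and 59.5 CPM (0.28, 0.10 to 0.46). Klf1, Car1 and Hemgn were limited by the rule to 1 UMI per cell, and 67 globin-rich and 50 globin-poor cells held that UMI. The rule thus also limited in advance the RNA of genes expressed together with these 3, so low counts of early genes are description only. Of the erythroid list, Blvrb (0.00), Hebp1 (-0.02) and Add1 (-0.07), each above 50 CPM in globin-poor cells too, had intervals that include 0.

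The extra erythroid RNA of globin-rich cells was set against barcodes of library 2 that hold mostly globin. These 473 globin-dominated barcodes have at least 50% globin UMIs (median 67.1%), under 0.3% Kupffer UMIs, at most 1 UMI of Klf1, Car1 and Hemgn and a median of 506 genes, and this class was chosen after values were seen. The extra UMIs of a gene, above those of globin-poor cells at equal totals, were divided by the extra globin UMIs. Alas2 gave 23.7 extra UMIs per 10000 extra globin UMIs (approximate interval 22.7 to 24.7), beside 24.9 (24.1 to 25.6) in globin-dominated and 23.5 in erythroblast-gated barcodes. Slc25a37 gave 17.1, beside 20.01 and 78.8, and Cd24a 7.67, beside 10.1 and 162. Car2 gave 3.89, beside 8.63 and 172, and Slc4a1 5.93, beside 9.39 and 65.2.

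**Figure D3:**
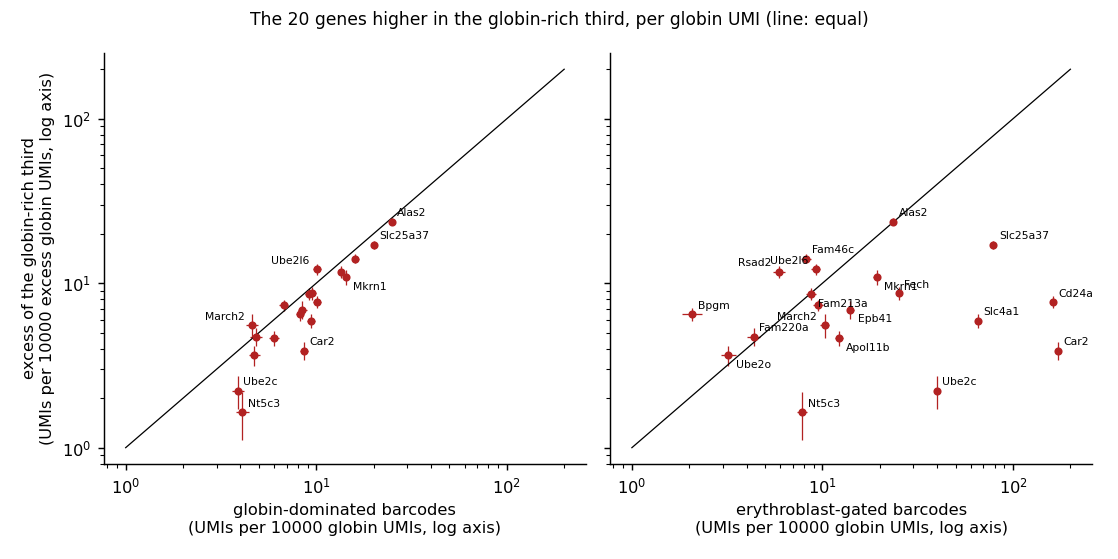
Extra UMIs of the 20 genes in globin-rich Kupffer cells per 10000 extra globin UMIs (vertical log axis) against UMIs per 10000 globin UMIs (horizontal log axis) in globin-dominated barcodes (left) and erythroblast-gated barcodes (right), with 95% counting intervals and a line of equality. On the left 16 of 20 genes lie within 1.5-fold of the line, and on the right 6 of 20. The genes were picked by their level in globin-rich cells, and the gates on Klf1, Car1 and Hemgn differ between the panels.

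Of the 20 genes, 16 had an extra amount per globin within 1.5-fold of the globin-dominated barcodes and 18 within 2-fold, with ratios from 0.401 (Nt5c3) to 1.21 (March2 and Ube2l6) and a median of 0.836. Against erythroblast-gated barcodes, 6 of the 20 were within 1.5-fold and 10 within 2-fold, with ratios from 0.0226 to 3.12. Globin-rich cells and globin-dominated barcodes were both limited to 1 UMI of Klf1, Car1 and Hemgn. Erythroblast-gated barcodes needed at least 5, so the gates set this class apart in advance. Rsad2 gave 11.7 per 10000 (10.7 to 12.8), beside 13.5 in globin-dominated and 5.91 in erythroblast-gated barcodes. Mki67, a gene of dividing cells, gave 0.03 (-0.38 to 0.43), beside 1.03 and 59.6. The plot per globin shows the same genes near equality on the left and scattered on the right. Whether these droplets held engulfed red cells, attached red cells, free RNA, 2 cells or RNA made by the Kupffer cell itself was not tested.

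At equal depth, a UMI of Alas2, Bpgm, Slc25a37 or Fam46c was found in a larger share of globin-rich than of globin-poor cells, but not each share stood clear of the background in other barcodes. After each cell was thinned to 1500 UMIs without globin, Alas2 had a UMI in 297 of 808 globin-rich cells (36.8%, 33.4 to 40.2), 59 intermediate (7.30%, 5.60 to 9.32) and 19 globin-poor cells (2.35%, 1.42 to 3.65). Lymphocyte-gated barcodes had 8.77% (5 of 57, with 3 too shallow, 2.91 to 19.3) and endothelial-gated ones 5.15% (5 of 97, 1.69 to 11.6). The share of globin-poor cells was below both, though its counting interval overlaps each of theirs. The share of intermediate cells lay between them and within their counting intervals. Without thinning the Alas2 shares were 79.0%, 29.3% and 12.4% in globin-rich, intermediate and globin-poor cells, and 16.7% and 15.5% in the other barcodes. Bpgm had a UMI in 10.5% (8.49 to 12.8), 1.86% and 0.990% of thinned globin-rich, intermediate and globin-poor cells, and in 43.4%, 13.9% and 8.17% without thinning. For Bpgm, lymphocyte-gated barcodes stood at 1.75% (0.0444 to 9.39) and endothelial-gated ones at 6.19% (2.30 to 13.0) after thinning, and at 3.33% and 17.5% before. Both thinned intervals overlap that of globin-rich cells. Slc25a37 had a UMI in 31.3% (28.1 to 34.6), 13.9% and 7.55% of thinned globin-rich, intermediate and globin-poor cells, beside 21.1% (11.4 to 33.9) in lymphocyte-gated and 15.5% in endothelial-gated barcodes. Fam46c had 23.1% (20.3 to 26.2), 9.65% and 5.57%, beside 21.1% and 7.22%. For Slc25a37 and Fam46c, too, the interval of the few lymphocyte-gated barcodes thus overlaps that of globin-rich cells. Without thinning, Slc25a37 stood at 72.4%, 51.0% and 31.8% in the Kupffer groups and 33.3% and 40.2% in the other classes, and Fam46c at 68.3%, 35.3% and 23.3% and at 28.3% and 14.4%.

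The number of Alas2 molecules varied widely among globin-rich cells. The mean was 2.88 UMIs per cell in globin-rich, 0.421 in intermediate and 0.132 in globin-poor cells. At least 3 were counted in 345 globin-rich, 18 intermediate and 0 globin-poor cells, while 170 globin-rich cells had none. Globin-rich cells without Alas2 had a median of 350.5 globin UMIs, and those with at least 3 Alas2 UMIs had 1580.

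Over 10 equal bins of the ranking, late erythroid genes spanned a wider range than the Kupffer genes plotted. From the lowest to the highest bin the median globin share went from 0.175% to 19.8%. Alas2 had 8.43 CPM (5.34 to 12.6) in the lowest bin, 28.9 in the fifth, 128 in the eighth, 251 in the ninth and 609 (577 to 643) in the highest. Mkrn1 was flat over the lower bins, between 108 and 131 CPM up to the seventh, and had 161, 243 and 389 CPM in the last 3. Slc4a1 had 75.9, 110 and 102 CPM in the last 3 bins, with overlapping intervals in the highest pair. Hmox1 had 7523 CPM in the lowest bin, 9243 in the ninth and 8685 in the highest, so its level did not follow globin to the top of the ranking. Marco had 15312 CPM in the lowest, 13307 in the seventh and 11762 in the highest bin, Vcam1 1794, 2385 and 2170, and Fth1 24918, 21305 and 19702.

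**Figure D4:**
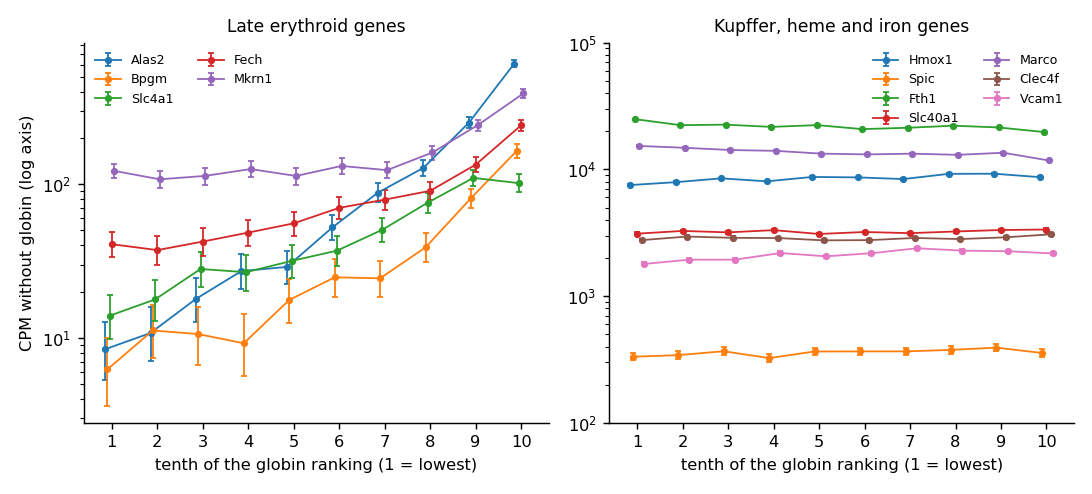
Level (vertical log axis, CPM without globin, bars are exact Poisson 95% intervals) of 5 late erythroid genes (left) and 7 Kupffer, heme and iron genes (right) in 10 equal bins of Kupffer cells ordered by globin share (horizontal axis). Alas2 goes from 8.43 to 609 CPM, while Hmox1 stays between 7523 and 9243 CPM.

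Genes of heme and iron handling were nearly level between globin-rich and globin-poor cells. Of 28 listed genes 16 reached the minimum level, none differed by 1.5-fold, and their median log2 ratio was 0.01 beside -0.02 over all genes. Hmox1 (chromosome 8, 75093621 to 75100589) had 7924 CPM (7863 to 7986) in globin-poor, 8503 (8436 to 8570) in intermediate and 9006 (8939 to 9073) in globin-rich cells, a log2 ratio of 0.18 (0.17 to 0.20), or 1.14-fold. With globin in the denominator the Hmox1 log2 ratio was 0.02. Single cells overlapped almost fully, with a median of 8993 CPM (5th to 95th percentile 2632 to 16505) in globin-rich and 7817 (1816 to 15468) in globin-poor cells. Lymphocyte-gated barcodes of the library had a Hmox1 UMI in 89.5% of thinned cells, so a share of cells with a UMI says nothing for this gene.

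Ferritin went the other way by a small amount. The heavy chain gene Fth1 had 23209 CPM in globin-poor, 21501 in intermediate and 21169 in globin-rich cells (log2 ratio -0.13, -0.14 to -0.12), and the light chain gene Ftl1 12855, 12358 and 12380 (-0.05, -0.07 to -0.04). Slc40a1, the iron exporter ferroportin, had 3183, 3185 and 3293 CPM (0.05, 0.02 to 0.07). Spic (chromosome 10, 88674772 to 88685015), which drives the iron-recycling macrophage program, had 342, 358 and 375 CPM (0.13, 0.06 to 0.21), and the heme carrier Slc48a1 562, 572 and 599 CPM (0.09, 0.03 to 0.15). Blvrb, a biliverdin reductase, had 617 and 619 CPM in globin-poor and globin-rich cells (0.00), Ncoa4, which brings ferritin to lysosomes, 0.15 (0.08 to 0.22), and Cd163, the receptor of haptoglobin-hemoglobin complexes, -0.04 (-0.17 to 0.09). With globin left out of the denominator, the direction thus varied from gene to gene along the route of iron, and none of the genes named reached 1.5-fold. The signs of such small ratios depend on that choice. With all UMIs as denominator the median of the heme and iron list was -0.16, and over the alternatives run Spic lay between -0.03 and 0.18.

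NRF2 targets, which protect against oxidants and respond to heme, showed the same absence of large differences. Of 20 genes 13 reached the minimum level, 0 were past 1.5-fold, and the median was 0.00. Gclm, needed for the first step of glutathione production, had a log2 ratio of 0.11 (0.02 to 0.20), Txnrd1, a thioredoxin reductase, 0.06, Prdx1, a peroxidase, -0.08, and Txn1, thioredoxin, -0.17 (-0.21 to -0.13). Among 10 measured genes of peroxide defence, Prdx2, the main peroxiredoxin of red cells, had 348 and 267 CPM in globin-rich and globin-poor cells (0.38, 0.30 to 0.46), and Prdx5 398 and 476 (-0.26).

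Small differences were found in single Kupffer, scavenger and adhesion genes. Kcna2, a potassium channel gene of the Kupffer identity list, had 216 CPM in globin-poor, 250.4 in intermediate and 263 in globin-rich cells (log2 ratio 0.29, 0.20 to 0.38). Marco, a scavenger receptor (chromosome 1, 120474538 to 120505024), had 14839 CPM (14755 to 14924) in globin-poor, 13285 in intermediate and 12866 (12786 to 12946) in globin-rich cells, a log2 ratio of -0.21 (-0.22 to -0.19). Its median over single cells was 14210 CPM (5th to 95th percentile 5311 to 25672) in globin-poor and 11641 (3922 to 24071) in globin-rich cells. Vcam1, an adhesion protein that holds erythroblasts to island macrophages, had 1912, 2176 and 2262 CPM in globin-poor, intermediate and globin-rich cells (0.24, 0.21 to 0.27). Other genes of erythroblast adhesion were level, with Itgav at 0.02, Itga4 at 0.04 and Siglec1, the island marker CD169, at -0.11 (-0.29 to 0.07). The nuclease Dnase2a, which digests engulfed nuclear DNA, had 0.11 (0.00 to 0.21).

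Receptors by which macrophages take up dying or coated cells differed little. Of 18 uptake genes 9 reached the minimum level, with a median log2 ratio of 0.03 and none past 1.5-fold. Mertk had 0.10 (0.04 to 0.17), Axl 0.03, Lrp1 0.01 and Timd4 -0.12 (-0.21 to -0.03). The Fc receptor genes Fcgr3 and Fcgr4 had -0.15 and -0.12 and Fcgr1 0.11 (-0.02 to 0.24), while Sirpa, which receives the Cd47 signal of intact red cells, had 0.06 (0.01 to 0.11). Lysosomal genes, which serve digestion, had a median of -0.01 over 23 genes with a range from -0.10 to 0.09.

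Of antigen presentation and inflammation few genes were measured, and none of those at the minimum level differed by 1.5-fold. The 6 measured MHC class II genes, whose proteins present peptides to helper T cells, had a median of -0.07, with H2-Aa at 115 CPM in globin-rich and 122 in globin-poor cells (-0.09, -0.23 to 0.04) and the invariant chain gene Cd74 at 506 and 507 CPM (0.00). Of 21 inflammatory genes 5 reached the minimum level, with a median of -0.03 and Il1b at 45.8 and 50.4 CPM (-0.14, -0.35 to 0.07). The anti-inflammatory list also had 5, with a median of -0.04, and Ccl24, a chemokine for eosinophils, led it at 317 and 256 CPM (0.31, 0.22 to 0.39). In the lipid-associated macrophage list, median 0.00 over 11 genes, the tetraspanin gene Cd63 had 0.44 and the fatty acid carrier gene Fabp5 0.41, with Trem2 at 0.07. Below the minimum level some genes differed more. Il1rn, the interleukin-1 receptor antagonist, had 26.5 and 12.6 CPM in globin-rich and globin-poor cells (1.07, 0.72 to 1.43), the chemokine gene Ccl5, which T cells also express, 14.2 and 4.26 (1.74, 1.18 to 2.34), and Klf4, a transcription factor, 24.9 and 37.1 (-0.58, -0.85 to -0.31).

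**Figure D5:**
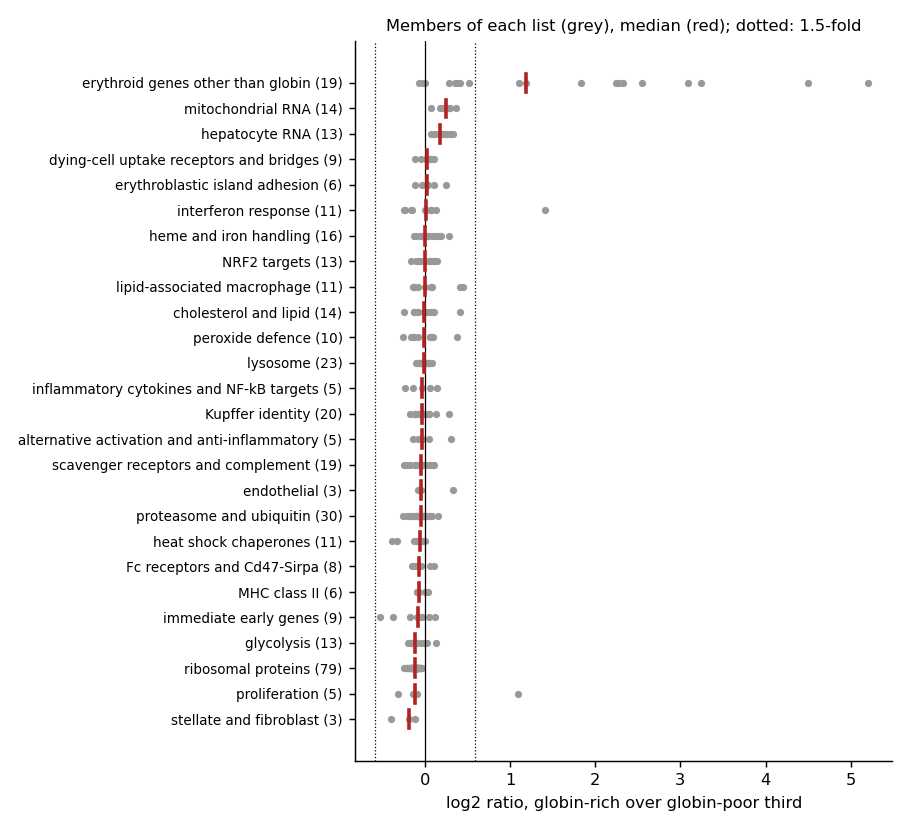
Log2 ratio of globin-rich over globin-poor Kupffer cells (horizontal axis) for the genes of each list that reached the minimum level (grey points, their number in brackets) with the median (red bar) and 1.5-fold as dotted lines. The erythroid list stands at a median of 1.19, with 10 of its 19 genes at the minimum in globin-rich cells alone and a median of 0.35 for the other 9, and the remaining medians lie between -0.19 and 0.25.

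The lowest ratios belonged to genes that were lower by less than 1.5-fold. Egr1, an immediate early transcription factor, had 36.5 CPM in globin-rich and 52.7 in globin-poor cells (log2 ratio -0.53, -0.75 to -0.31). Fabp7, a fatty acid carrier of Kupffer cells, had 177 and 252 CPM (-0.50, -0.61 to -0.41), with 265 CPM in the lowest, 164 in the eighth and 201 in the highest bin of the ranking. Klf2, a transcription factor that restrains inflammation, had 294 and 381 CPM (-0.37), Cd300e, a myeloid receptor, 72.4 and 96.1 (-0.41), and the stress chaperone genes Hspa1a and Hspa1b -0.39 and -0.32. Other genes among the 12 lowest were Ecm1, Emp3, Lamtor2, Slamf9, Tagln2, Fxyd5 and Retreg2, from -0.40 to -0.33. The 9 measured immediate early genes had a median of -0.08 and the 11 heat shock chaperones -0.06.

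Several measures of RNA makeup moved with the ranking by small amounts. All 14 measured mitochondrial RNAs were higher in globin-rich cells, with log2 ratios from 0.07 to 0.36 and a median of 0.25. Among them mt-Co1, a subunit of the last respiratory complex, had 35094 CPM in globin-rich and 30021 in globin-poor cells. The rule capped the mitochondrial share of UMIs with globin counted, so these counts helped to choose the cells and their levels are description only. Per cell, the median mitochondrial share without globin was 13.17% in globin-rich and 10.97% in globin-poor cells. Of all UMIs it was 11.81% and 10.94%, so the difference was smaller with globin in the denominator. All 79 measured ribosomal protein genes were lower, with a median of -0.12, and 13 glycolysis genes had a median of -0.11. All 13 measured hepatocyte RNAs, which Kupffer cells do not make, were higher, with a median of 0.18 and Alb, serum albumin, at 612 and 545 CPM. Summed, 21 hepatocyte genes had 3968 CPM in globin-rich, 3933 in intermediate and 3598 in globin-poor cells. None of these genes differed by 1.5-fold, and the part of RNA quality or of RNA from other cells in the small differences above was not tested.

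Markers of other blood cells were rare. Of 14 T and natural killer cell genes none reached the minimum level, and they summed to 26.3 CPM in globin-rich, 14.6 in intermediate and 6.26 in globin-poor cells, with Cd3e at 10 and 0 UMIs. Of the 203 such UMIs in globin-rich cells, 117 lay in 1 cell, and 4 cells of either outer group held at least 3. B and plasma cell genes summed to 63.7, 285 and 47.6 CPM in globin-rich, intermediate and globin-poor cells, with 1520 of the 2084 UMIs of intermediate cells in 1 cell, and neutrophil genes to 80.4, 108 and 56.8 CPM. Cells that held at least 2 UMIs of a shorter set of T, B and neutrophil genes, not of the full lists, were then left out. All 20 genes were again at least 1.5-fold higher, and the erythroid sum had a log2 ratio of 0.87.

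In library 1 the same rule found 1106 cells, of which 986 held no globin UMI, so the ranking could not be repeated there. All values of that library are from the other mouse and are given beside those of all 2424 cells of library 2 without a test. Alas2 had 4.75 CPM (3.38 to 6.50) in library 1 and 121 (116 to 125) in library 2, and Slc4a1 0.122 (1 UMI) and 49.0. Hmox1 had 989 CPM (967 to 1011) and 8471 (8433 to 8509), Fth1 3410 and 21982, Marco 465 and 13683, and Spic 106 and 358. The globin-poor cells of library 2, at 7924 CPM of Hmox1, were thus far closer to the globin-rich cells of their own library than to the cells of library 1. H2-Aa had 2893 CPM in library 1 and 120 in library 2, beside 122 and 115 in the globin-poor and globin-rich cells.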

How the data were processed

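UMI counts per gene and barcode were deposited by the authors as 1 joined matrix of both libraries, made with Cell Ranger 3.0.1 on GRCm38.p5, per the submitters' processing notes, which also name R 3.6.1. Library 2 held 56947765 UMIs in 9726 barcodes. The cells, gene lists and comparison classes were chosen with earlier results of these data known. UMIs were summed over cells and scaled to CPM without the 4 globin genes. Ratios carry conditional exact, CPM exact Poisson and shares exact Clopper-Pearson 95% intervals, which cover counting error only, since reads of 1 mouse give no replicate error. Genes needed at least 50 CPM in either group and at least 30 UMIs, and 3 UMIs stood in for a count of 0 in ratios. Genes named were the 12 highest and 12 lowest ratios without numbered predicted genes, members of the lists, and a set given always, of which Ahsp was not analysed here. The rest of the 20 genes past 1.5-fold, Slc25a39, the genes of the per-globin comparison and list members below the minimum were named after their values were seen. Comparison barcodes needed at least 1000 UMIs. Lymphocyte-gated ones held at least 3 UMIs of Cd3e, Cd3d, Trbc2, Cd79a, Cd79b and Ms4a1, endothelial-gated ones at least 0.5% of the 6 endothelial genes and erythroblast-gated ones at least 5 UMIs of Klf1, Car1 and Hemgn, each with under 0.3% Kupffer UMIs. No doublet caller was run. The contrast was tested on simulated data. The work used scipy 1.17.1 and numpy 2.4.6 under python 3.11.15, with pandas 2.3.3 for tables and matplotlib 3.10.9 for plots. A few genes of the rule and lists are not reported here, though they count in the totals.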

Additional observations from a re-analysis of the deposited data

How the results depend on the processing

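Of 22 alternatives, 20 were planned and 2 added after the data were seen. The added ones were the outer 10% bins of the ranking, and leaving out cells with lymphocyte or neutrophil UMIs (at least 2 UMIs of a shorter set of T, B and neutrophil genes). Over all 22, the number of genes at least 1.5-fold higher ran from 4 to 46 and the count lower from 0 to 17. In 13 of the alternatives every one of the 20 genes was called again; the others called fewer of them, 15 with a stricter erythroblast gate (no UMI of Klf1, Car1, Hemgn, Gata1 or other gate genes) and 17 without proliferating cells among them. The higher count was 37 with a minimum of 20 CPM, 4 with 200 CPM, 46 with a limit of 5/4-fold and 42 between the outer 10% bins. The lower count, 0 in the report, was 5 between the outer 20% of the ranking, 1 between its upper and lower 50%, 2 with all UMIs as denominator, 3 with cells thinned to 3000 UMIs, 3 with at most 10% mitochondrial UMIs, 1 with at least 5000 UMIs, 1 without cells over 2 times the median UMIs, 1 without barcodes shared with library 1, 8 with 20 CPM, 17 with 5/4-fold and 14 between the outer 10% bins. The cause of these changes was not tested, apart from the limits themselves, which admit more or fewer genes.

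The erythroid sum (log2 ratio 0.84) was 1.09 between the outer 20%, 0.65 between the upper and lower 50%, 1.33 between the outer 10% bins, 0.68 with all UMIs, 0.90 as a mean of per-cell shares, 0.92 with at most 10% mitochondrial UMIs, 0.65 with the stricter erythroblast gate, 0.76 without proliferating cells and 0.87 without lymphocyte or neutrophil UMIs. The heme and iron median (0.01) was -0.16 with all UMIs and 0.082 with at most 10% mitochondrial UMIs, and the MHC class II median (-0.07) was -0.24 with all UMIs and 0.095 without cells over 2 times the median UMIs. Hmox1 (0.18) was 0.22 between the outer 20%, 0.12 between the upper and lower 50%, 0.21 between the outer 10% bins, 0.020 with all UMIs, 0.17 thinned, 0.20 with at most 10% mitochondrial UMIs, 0.15 with a stricter erythroblast gate (no UMI of Klf1, Car1, Hemgn, Gata1 or other gate genes), 0.21 without endothelial UMIs, 0.16 ranked by beta globin, 0.16 without shared barcodes, 0.21 relative to the median of all genes and 0.16 without lymphocyte or neutrophil UMIs. Marco stayed between -0.38 and -0.15 and Vcam1 between 0.08 and 0.30. No result past 1.5-fold changed direction in the alternatives run. No paired analysis was possible because the contrast lies within 1 library and no test was run. With 1 mouse per library, leaving out a replicate was not possible either.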
